A study of Sus scrofa with 16 samples.

Results

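The Notch receptors, their ligands and the nuclear and target genes HEY1, HES1, JAG1, NOTCH1, NOTCH2, NOTCH3, DLL4 and RBPJ were examined in pig colonic mucosa and liver. A probe was taken as a member when the array annotation gave one of these 8 symbols as its gene name or held the symbol in brackets in its description. By this rule 9 of the 43603 probes on the array were members, and they covered 4 of the 8 genes: JAG1 with 4 probes, DLL4 with 2, NOTCH1 with 1 and HEY1 with 2. HES1, NOTCH2, NOTCH3 and RBPJ were matched by no probe and are not analysed here, except for 3 probes outside the rule whose descriptions read notch 2. The genes were selected on the diet values of these arrays, the RPS minus CS differences in colon and liver and the difference between them, so the diet differences of the members are given as a description without a test, while the difference between the organs was not used in the choice and was tested.

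In Notch signalling, a ligand of the Jagged or Delta-like family on one cell binds a Notch receptor on its neighbour, the receptor is cleaved, and its freed inner part enters the nucleus, joins RBPJ and switches on repressors of the HES and HEY families. In the intestine the pathway is known for holding progenitor cells back from the secretory fate, and in the liver for biliary development and for signalling in the vessels. HEY1 is a target gene of the pathway and is widely known from endothelial cells.

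The arrays held RNA from the liver and from the scraped mucosa of the proximal colon of pigs. These were barrows (castrated males) of a Duroc × Landrace × Large White cross, aged 170 d, without a transgene or deletion. The CS pigs ate a corn and soybean diet with purified corn starch, and in the diet of the RPS pigs the corn starch was replaced by raw potato starch, a resistant starch, at 230 g/kg in the growing feed and 280 g/kg in the finishing feed over 100 days. Each diet and organ had 4 arrays, 16 in all, and each array held the RNA of 1 pig without pooling. Whether the colonic and liver arrays of one number came from the same pig is not given in the sources used here. The question asked of these genes was whether their signal differed between the diets in either organ and whether the difference was alike in both.

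The labels of the organs were checked against marker genes. KRT20 and CDX2, markers of intestinal epithelium, passed the background mark on each of the 8 colonic arrays and on none of the 8 liver arrays, while TTR, a hepatocyte product, passed it on each of the 8 liver arrays and on no colonic array. The other listed epithelial and hepatocyte markers passed it on arrays of both organs. Of these, EPCAM was higher in the colon (log2 difference 7.5) and APOA1 lower (-9.0), while CDH1 differed little (0.44). The share of probes well above background was between 64.9% and 72.2% on the colonic arrays and between 61.1% and 65.9% on the liver arrays. The median spot signal was between 56.3 and 70.8 on the colonic CS arrays and between 34.2 and 42.5 on the colonic RPS arrays, before normalization. Each of the 4 slides held 1 group only, so slide and group cannot be told apart.

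HEY1 was read by 2 probes of 60 bases, and a 30-base stretch of each is shown because the results on HEY1 rest on both. The first stretch is bases 31 to 60 of probe A_72_P502689, with the hexamer AATAAA, a polyadenylation signal, in capitals. The second is bases 1 to 30 of probe A_72_P245497.
HEY1 A_72_P502689: ttgtgactaAATAAAaaagaacaaactctt
HEY1 A_72_P245497: ttaagatcccagctgagctgggctgttgcc
The hexamer AATAAA was found in 9.6% of all probes on the printed strand and in 4.17% on the other strand. The longest run of bases that the whole HEY1 probes shared was 7, so they are different sequences.

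NOTCH1 was read by a single probe, whose sequence is given because the largest difference between the organs among the members rests on it alone. DLL4 was read by 2 probes, shown because they did not move together.
NOTCH1 A_72_P075051: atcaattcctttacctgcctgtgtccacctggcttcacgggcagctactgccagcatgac
DLL4 A_72_P291374: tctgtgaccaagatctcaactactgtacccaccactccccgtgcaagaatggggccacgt
DLL4 A_72_P493113: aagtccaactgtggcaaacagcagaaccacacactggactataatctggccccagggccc

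HEY1, a transcriptional repressor, differed between the diets in opposite directions in the 2 organs, being higher with the RPS diet in the colon and lower with it in the liver at both probes. The values below are normalized signals on the log2 scale, on which a difference of 1 is a doubling, and each gene with several probes was read at its brightest one. In the colon, probe A_72_P502689 had signals of 8.30, 8.19, 7.97 and 8.28 on the CS arrays and of 8.54, 8.61, 8.51 and 8.58 on the RPS arrays. All 4 RPS arrays lay above the highest CS array, and the CS arrays were the more scattered. RPS minus CS was 0.37 ± 0.10 (SE, n = 4 against 4), a 1.30-fold higher signal.

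The second HEY1 probe gave the same direction in the colon. Its signals were 6.25, 6.50, 6.12 and 6.22 with CS and 6.73, 7.09, 6.75 and 6.88 with RPS, without overlap. The difference was 0.59 ± 0.13 (SE), or 1.51-fold. Over the 8 colonic arrays the signals of the 2 probes correlated with r = 0.887, a value that includes the diet difference shared by both.

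The colonic direction of HEY1 rested on scaling the arrays to each other. Before normalization the spot signal of probe A_72_P502689 was 387, 340, 360 and 437 on the CS arrays and 294, 343, 252 and 287 on the RPS arrays, with 3 of the 4 RPS arrays below all CS arrays. At the second probe the unscaled signals of the diets overlapped, with 3 RPS arrays between 75.5 and 85.4 below all CS arrays and RPS replicate 2 above them. The colonic CS arrays were brighter as a whole, as their median signals show, and HEY1 was higher with RPS relative to the other probes of the same array. Each diet in the colon lay on its own slide, so this brightness and the diet cannot be told apart.

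In the liver the order of the diets was turned. Probe A_72_P502689 had signals of 8.09, 7.89, 8.30 and 8.01 on the CS arrays and of 7.29, 7.23, 7.50 and 7.23 on the RPS arrays. The highest RPS array lay below the lowest CS array. RPS minus CS was -0.76 ± 0.11 (SE, n = 4 against 4), a 1.69-fold lower signal with RPS.

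At the second probe the liver signals were 6.03, 5.97, 6.17 and 5.77 with CS and 5.41, 5.56, 5.70 and 4.99 with RPS. The groups again did not overlap, although the highest RPS array came within a narrow margin of the lowest CS array. The difference was -0.57 ± 0.17 (SE), or 1.48-fold lower, and the probes correlated with r = 0.874 over the 8 liver arrays. Before normalization the liver arrays had similar median signals (30.6 to 37.9 with CS and 31.1 to 37.9 with RPS), and the unscaled signal of the first probe, 234 to 355 with CS and 151 to 169 with RPS, was also lower with RPS. On every one of the 16 arrays both HEY1 probes were marked as well above background.

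**Figure D1:**
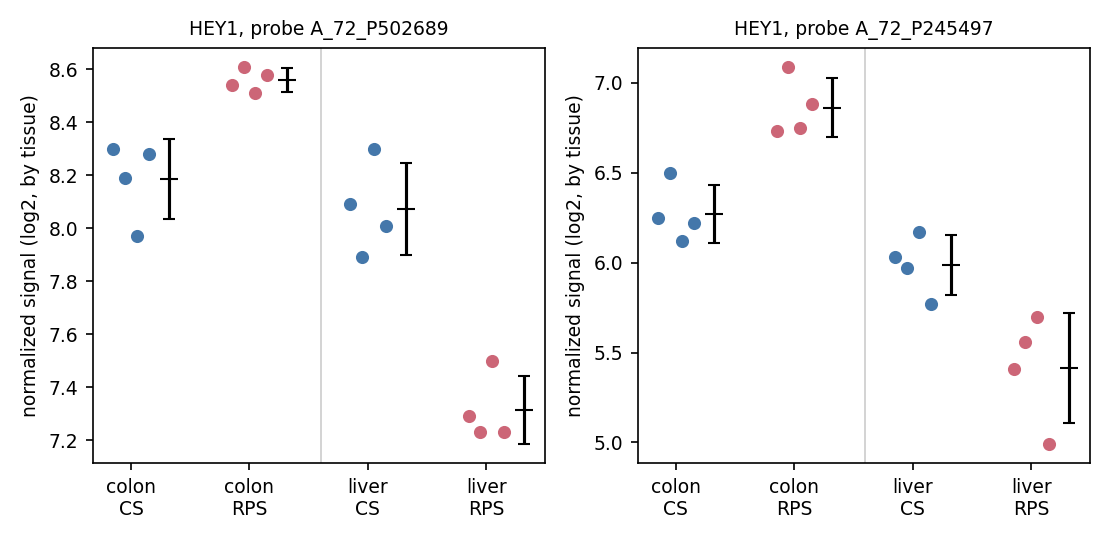
Normalized signal (log2, vertical axis, each tissue normalized on its own) of HEY1 at its 2 probes on each array of the 4 groups (blue, CS; red, RPS). Points are arrays and the black marks are the mean and SD of 4 arrays. At both probes the RPS arrays sit above all CS arrays in the colon and below all CS arrays in the liver.

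The difference of the diet effects, taken as RPS minus CS in the colon minus the same in the liver with the 16 arrays normalized together, was 1.13 ± 0.16 (SE) at the first HEY1 probe and 1.16 ± 0.22 (SE) at the second. These values use the same arrays as the differences within each organ and add no further samples. Under 24 other ways of processing the arrays or leaving 1 array out, the first probe kept its sign in all 24, with values between 0.82 and 1.18. Leaving out 1 array could hardly turn the sign, since the diet groups did not overlap in either organ. Some of the other ways leave the value itself unchanged, so the count of 24 is a description.

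Read within each diet, the order of the organs at HEY1 depended on the diet. This restates the difference of the diet effects on the same arrays and is not a further result. On the CS arrays, with the 16 arrays normalized together, HEY1 probe A_72_P502689 lay between 7.76 and 8.09 in the colon and between 8.10 and 8.50 in the liver, and colon minus liver was -0.30 ± 0.11 (SE). On the RPS arrays it lay between 8.31 and 8.41 in the colon and between 7.45 and 7.72 in the liver, and colon minus liver was 0.83 ± 0.11 (SE). In each diet the organs were separated, with the liver higher in CS pigs and the colon higher in RPS pigs. At the second probe the organs overlapped with CS, where colon minus liver was -0.22 ± 0.15 (SE), and were apart with RPS, where it was 0.95 ± 0.15 (SE).

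Sums of cell type markers also differed between the diets. In a piece of tissue, fewer cells of a type and less RNA per cell cannot be told apart. In the colon, the summed signal of 6 smooth muscle and mural cell markers lay between 15.09 and 15.23 with CS and between 14.53 and 14.95 with RPS, so it was lower where HEY1 was higher, and all 6 markers had a negative difference. The colonic sum of 5 endothelial markers overlapped between the diets, from 12.21 to 12.48 with CS and from 11.80 to 12.57 with RPS. Their part in the HEY1 difference was not tested.

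In the liver the endothelial sum lay between 13.17 and 13.26 with CS and between 12.79 and 13.16 with RPS, and the difference was negative at 5 of 5 markers with a median of -0.32. The sum of 3 biliary markers lay between 9.79 and 10.04 with CS and between 8.79 and 9.75 with RPS. The sums of 4 hepatocyte markers (19.93 to 20.01 against 19.75 to 19.91) and of 4 leukocyte markers (14.13 to 14.29 against 13.82 to 14.04) were also lower with RPS without overlap. The liver sum of the smooth muscle and mural cell markers overlapped between the diets, from 13.85 to 14.23 with CS and from 13.67 to 14.54 with RPS. That of the colonic epithelial markers also overlapped, from 14.60 to 15.23 with CS and from 14.81 to 15.56 with RPS. The part of these cell types in the lower HEY1 and NOTCH1 signals of the RPS livers was not tested.

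NOTCH1, one of the receptors, was lower with the RPS diet in the liver, and its diet groups overlapped in the colon. In the liver its signals were 10.50, 10.31, 10.39 and 10.49 on the CS arrays and 10.21, 9.67, 9.60 and 9.66 on the RPS arrays. The RPS arrays all lay below the CS arrays, 3 of them close together and RPS replicate 1 nearer to the CS arrays. RPS minus CS was -0.64 ± 0.15 (SE, n = 4 against 4), a 1.55-fold lower signal.

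In the colon NOTCH1 had signals of 7.16, 6.94, 6.28 and 7.04 with CS and of 6.97, 6.71, 6.71 and 7.84 with RPS. The groups overlapped, with CS replicate 3 the lowest array and RPS replicate 4 the highest. RPS minus CS was 0.20 ± 0.31 (SE), and the difference of the diet effects between the organs was 0.83 ± 0.36 (SE).

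JAG1, a ligand of the Jagged family, varied more between the pigs than between the diets in the colon. Its brightest probe, A_72_P500418, had colonic signals of 11.27, 11.02, 9.99 and 11.47 with CS and of 11.25, 10.36, 11.60 and 11.40 with RPS. CS replicate 3 and RPS replicate 2 were the lowest arrays of their groups, at this probe and at the other 3 JAG1 probes. The difference was 0.22 ± 0.40 (SE), within the spread of either group.

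The liver signals of the same probe were 10.20, 10.38, 10.61 and 10.19 with CS and 10.21, 10.27, 9.58 and 10.16 with RPS. All arrays but RPS replicate 3 lay within a narrow range, and the difference was -0.29 ± 0.18 (SE). Across the 4 JAG1 probes the colonic difference ran from 0.10 to 0.73 and the liver difference from -0.29 to -0.14, and the diet groups overlapped at each probe in both organs. The probes correlated with r from 0.844 to 0.995 over the 8 colonic arrays and from 0.776 to 0.985 over the 8 liver arrays, so they ranked the pigs much alike.

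The colonic arrays low in JAG1 were also low in epithelial markers. The summed signal of 7 markers of colonic epithelium was 16.94 on CS replicate 3 and 17.47 on RPS replicate 2, and between 18.37 and 18.77 on the other 6 colonic arrays. The leukocyte sum was 12.47 and 12.13 on these 2 arrays and at most 11.29 on the others. The first DLL4 probe followed the same pattern, with its lowest colonic signals of 4.82 and 4.86 on these arrays. HEY1 did not, since CS replicate 3 had its lowest colonic signal and RPS replicate 2 its highest at both probes.

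**Figure D2:**
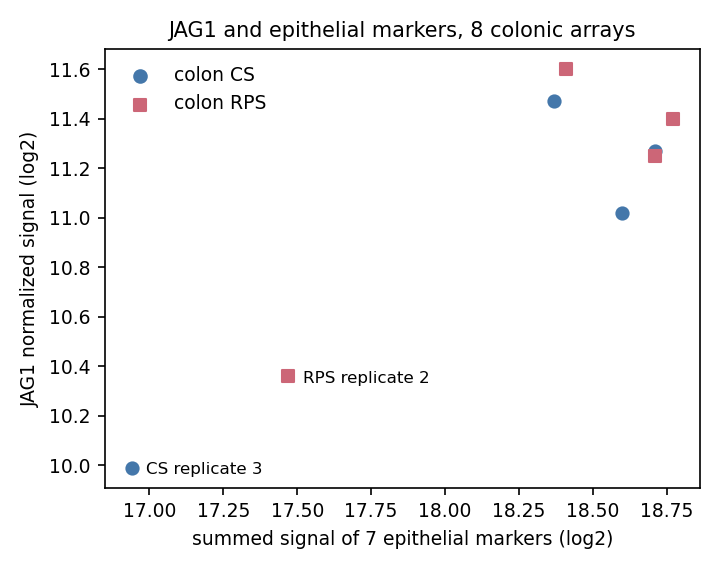
JAG1 signal at probe A_72_P500418 (log2, vertical axis) against the summed signal of 7 epithelial markers (log2, horizontal axis) on the 8 colonic arrays (blue circles, CS; red squares, RPS). CS replicate 3, at 16.94 and 9.99, and RPS replicate 2, at 17.47 and 10.36, lie apart from the other 6 arrays.

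DLL4, a Delta-like ligand known from endothelium, gave no common pattern at its 2 probes. Probe A_72_P291374 had colonic signals of 5.65, 5.52, 4.82 and 5.51 with CS and of 5.83, 4.86, 5.44 and 5.85 with RPS, and RPS minus CS was 0.12 ± 0.28 (SE). In the liver its signals were 4.51, 4.73, 4.25 and 4.63 with CS and 5.14, 4.45, 4.85 and 4.62 with RPS, and the difference was 0.24 ± 0.17 (SE). The groups overlapped in both organs.

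Probe A_72_P493113 of DLL4 gave differences of -0.32 ± 0.32 (SE) in the colon and -0.53 ± 0.30 (SE) in the liver, of the opposite sign to the first probe. It was well above background on 6 of the 8 colonic arrays and on 1 of the 8 liver arrays, while the first probe was so on all 16. The 2 probes correlated with r = 0.0662 in the colon and -0.144 in the liver. The 3 probes described as notch 2 overlapped between the diets in both organs, with differences between -0.59 and 0.23 in the colon and between 0.17 and 0.28 in the liver.

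**Figure D3:**
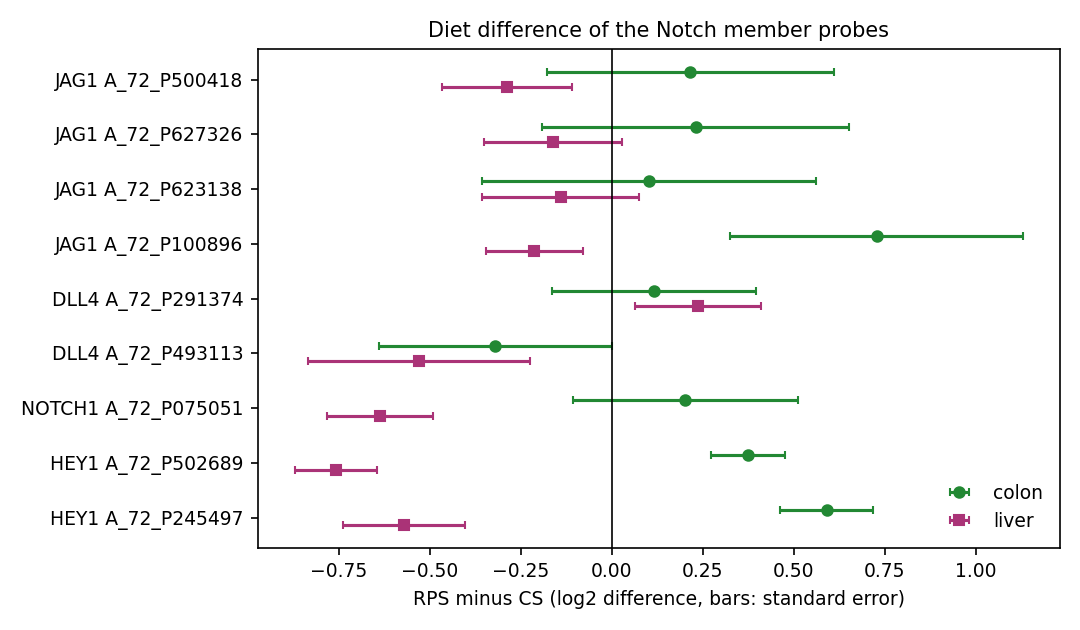
RPS minus CS (log2 difference, horizontal axis) of each of the 9 member probes in colon (green circles) and liver (purple squares), with bars of 1 standard error. Both HEY1 probes lie right of 0 in the colon and left of it in the liver, and the liver value of NOTCH1 is -0.64.

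With the thresholds of the study (an unadjusted p below 0.05 and a fold change above 1.5), which the choice of the members makes a description only, 1 of the 9 member probes passed in the colon (the second HEY1 probe, just past the fold threshold), where 2.94% of all probes did. In the liver 2 passed (the first HEY1 probe and NOTCH1), beside 3.56% of all probes. For the difference of the diet effects 3 passed (both HEY1 probes and NOTCH1), beside 3.76%. The diet groups did not overlap at 2 of the 9 probes in the colon, both of HEY1, beside 6.5% of all probes, and at 3 of 9 in the liver, beside 4.44%. The second HEY1 probe in the liver lay just outside the fold threshold.

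Between the organs, NOTCH1 was far lower in the colon than in the liver. With the 16 arrays normalized together its signal was 6.72 ± 0.46 (SD, n = 8) in the colon and 10.3 ± 0.38 (SD, n = 8) in the liver, and the lowest liver array at 9.78 lay above the highest colonic array at 7.62. Colon minus liver was -3.55 ± 0.18 (SE), an 11.7-fold difference (limma, adjusted p = 6.55e-10), with -3.96 within the CS pigs and -3.14 within the RPS pigs. Over all probes, 24% were lower and 28.9% higher in the colon at an adjusted p below 0.05. The endothelial markers CDH5, KDR and TEK were also lower in the colon, with values between -2.88 and -2.25. PECAM1 was lower to a lesser degree, at -0.56, and VWF was higher by 1.72. Their part in the NOTCH1 difference was not tested.

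HEY1 was slightly higher in the colon when both diets were averaged. Colon minus liver was 0.26 ± 0.08 (SE) at the first probe and 0.36 ± 0.11 (SE) at the second (limma, adjusted p = 0.0116 at each), averages over diets of opposite sign at both probes. With the slide as a random block, in a fit without the diet, the adjusted p of the first probe was 0.189. In that fit the opposite diet differences of HEY1 count as spread, and the estimated correlation within slides was -0.0462. The value therefore does not show what allowing for the slide alone does. JAG1 had a difference of 0.54 ± 0.23 (SE, limma, adjusted p = 0.0614), which passed without CS replicate 3 (0.71, adjusted p = 0.00564) or without RPS replicate 2 (0.68, adjusted p = 0.0133), the colonic arrays low in epithelial markers. DLL4 had 0.25 ± 0.17 (SE, adjusted p = 0.242), with a 95% confidence interval from -0.12 to 0.62.

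**Figure D4:**
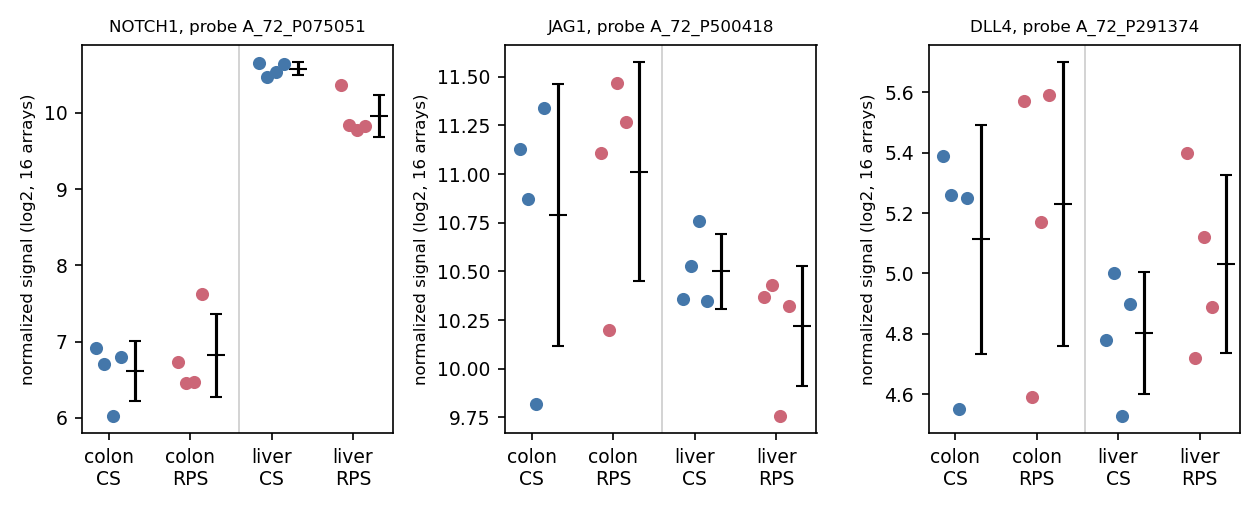
Normalized signal (log2, vertical axis, 16 arrays normalized together) of NOTCH1, JAG1 and DLL4 at the brightest probe of each on every array of the 4 groups (blue, CS; red, RPS), with the mean and SD of 4 arrays in black. NOTCH1 lies between 9.78 and 10.65 in the liver and between 6.03 and 7.62 in the colon, while JAG1 and DLL4 overlap between the organs.

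Other genes of the pathway were read from a list of 58, of which 22 had a named probe. Between the diets, 1 of 22 passed both thresholds in the colon (2.57% of all genes did, 1 probe a gene). In the liver 0 of 22 passed (3.25%) and for the difference of the diet effects 1 of 22 (3.49%). These counts lie near the shares over all genes, and nothing about the pathway is read from them. The gene that passed was DLK1, a non-canonical ligand, whose brightest probe was well above background on none of the 16 arrays, so no size is given. By limma, 0 of 22 had an adjusted p below 0.05 in either organ. An unadjusted p below 0.05 was held by 1 in each, beside 5.42% of all probes in the colon and 7.59% in the liver. The methods' t-test also gave 0 after adjustment, with 2 of 22 below 0.05 unadjusted in the colon and 1 in the liver. The median difference of the list was 0.012 in the colon and 0.0038 in the liver, beside 0.012 and -0.0057 over all 6618 genes.

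HEY2, the relative of HEY1 and also a target of the pathway, had a difference of 0.09 ± 0.19 (SE) in the colon and of -0.24 ± 0.46 (SE) in the liver. HES6, a member of the HES family, had 0.02 and -0.31, and NOTCH4, an endothelial receptor, had -0.11 and -0.30. None of these passed a threshold. HEY2 was above background on 6 of the 8 liver arrays and on each colonic array.

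Between the organs, 12 of the 22 other genes were higher in the colon (37.5% of all genes) and 4 were lower (27%), at an adjusted p below 0.05. The largest higher values were those of CTBP2, a corepressor, at 2.03 ± 0.24 (SE, limma, adjusted p = 5.37e-06), of HES6 at 2.03 ± 0.15 (SE, adjusted p = 5.78e-08) and of TLE4, a Groucho corepressor, at 1.77 ± 0.13 (SE, adjusted p = 5.24e-08). All 5 corepressors with a probe, NCOR1 and TLE3 among them, were higher in the colon, with a median of 1.12 beside 0.13 over all genes.

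The largest lower values were those of PSEN2, a catalytic subunit of γ-secretase, at -2.92 ± 0.16 (SE, limma, adjusted p = 1.36e-09), of FURIN, the protease that cleaves the receptor precursor, at -1.32 ± 0.17 (SE, adjusted p = 1.73e-05) and of NOTCH4 at -0.67 ± 0.14 (SE, adjusted p = 8.14e-04). POFUT1, which puts O-fucose on the receptor, was the other gene lower in the colon. The organs differ in their cell types, as the markers show, and the part of these in the differences was not tested.

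**Figure D5:**
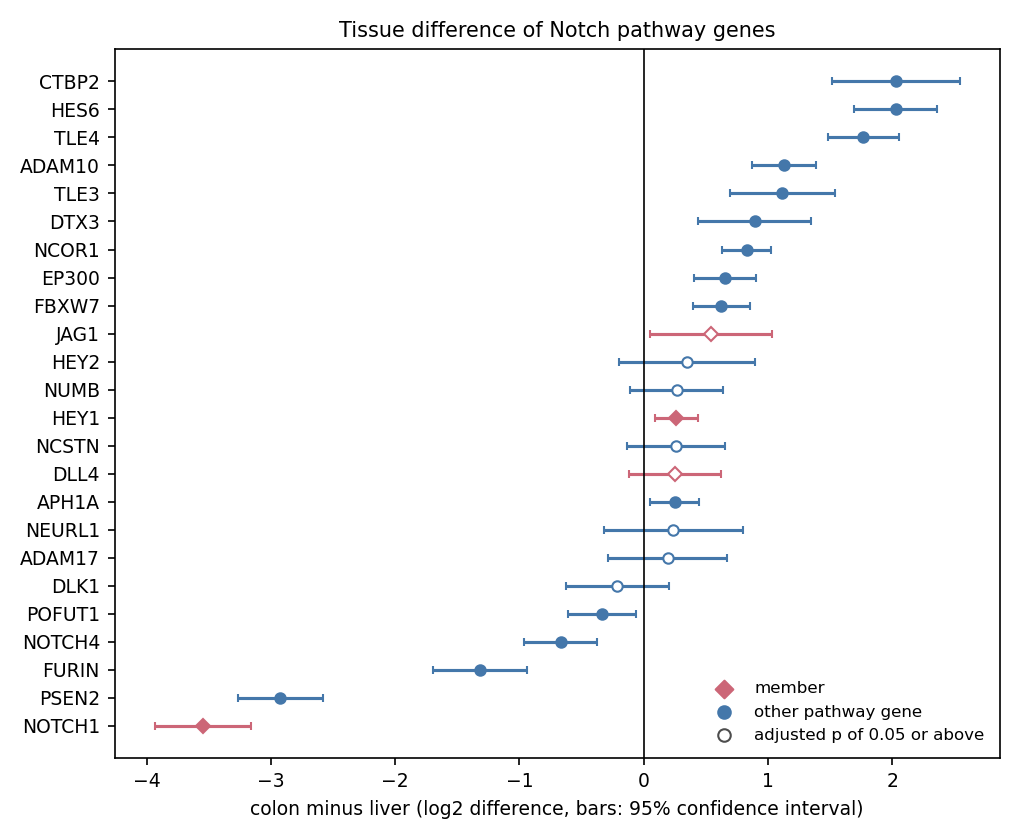
Colon minus liver (log2 difference, horizontal axis) of the 4 measured members (red diamonds) and 20 of the 22 other pathway genes (blue circles), at the brightest probe of each, with 95% confidence intervals. Filled symbols have an adjusted p below 0.05. The values run from -3.55 for NOTCH1 to 2.03 for CTBP2, and the DLK1 probe drawn was not above background on any array.

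Of 17 genes that mark lineages set by Notch signalling in gut and liver, 8 had a probe. In the colon none of the 8 passed both thresholds in limma, and CHGA, of enteroendocrine cells, had an unadjusted p below 0.05 with a difference of -0.30. The CHGA probe did not separate the organs (colon minus liver -0.06 ± 0.07 SE, limma, adjusted p = 0.533), so it did not behave as a marker of gut cells here. The goblet cell genes MUC2 and SPDEF had colonic differences of 0.07 and -0.09, and the stem cell genes LGR5 and ASCL2 had 0.32 and 0.60.

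In the liver 2 of the 8 genes passed both thresholds (3.25% of all genes did, 1 probe a gene), both lower with RPS. SOX9, a transcription factor of biliary cells, was 1 of them. SOX9 had signals of 4.44, 4.43, 4.71 and 4.64 with CS and of 3.75, 3.97, 2.04 and 3.93 with RPS. All RPS arrays lay below the CS arrays, the same side as HEY1 and NOTCH1.

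RPS minus CS in the liver was -1.13 for SOX9 (limma, adjusted p = 0.600), which did not pass after adjustment over all probes. SOX9 was well above background on 3 of the 4 RPS arrays, its difference was -0.67 without RPS replicate 3, and it missed the threshold when any 1 CS array was left out (p between 0.0548 and 0.0693 by limma, unadjusted). SPP1, which biliary cells also express, had a difference of -0.03. Between the organs ASCL2, SPDEF and MUC2 were the genes of this list most above the liver in the colon, with ASCL2 above background on 1 of the 8 liver arrays, and SPP1 was lower in the colon at -1.39 ± 0.34 (SE, limma, adjusted p = 0.00311).

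The genes whose colonic signals were most like those of HEY1 were found among 5241 symbols above background on all 8 colonic arrays. They were CRHR1, a receptor of corticotropin-releasing hormone, with r = 0.964, F8, coagulation factor VIII, with 0.958, AQP5, a water channel, with 0.955, PAPOLA, a poly(A) polymerase, with 0.928 and LIMK2, a kinase of the actin cytoskeleton, with 0.923. With the diet means removed the same correlations were 0.819, 0.781, 0.771, 0.624 and 0.814. HEY1 varied less on the colonic RPS arrays (SD 0.0445, n = 4) than on the CS arrays (SD 0.15, n = 4). These values therefore rest mainly on the CS pigs and do not show a like order within each diet. Over the 8 liver arrays they were -0.565, -0.147, -0.644, -0.657 and 0.0222, and none of the 5 followed HEY1 there. As the highest of 5241 values over 8 arrays, the colonic correlations are a description.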

How the data were processed

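The authors scanned 16 one-colour Agilent porcine arrays, each with the RNA of 1 pig, with Agilent Feature Extraction 10.7, and deposited spot intensity with the background subtracted and trends removed, not normalized between arrays. Unsubtracted spot and background intensity and marks for signal above background (other values, 0 or 1) come from the same deposited files. The authors also deposited log2 values, quantile normalized per the labels, used here as an alternative. Members and lists were chosen with earlier results of these data known.

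Control spots were left out, outlier spots set to missing, and log2 intensity was quantile normalized among the 8 arrays of each organ (all 16 for comparisons between organs) and averaged per probe. Diet and organ were fitted with limma 3.58.1 (lmFit, eBayes) in R 4.3.3 on all 43603 probes, with Benjamini-Hochberg adjustment. Genes were read at the brightest probe over 16 arrays. A symbol was found for 13864 probes (6618 genes) from the file, its descriptions and the RefSeq table. Sequences are those of the scanner files. Named genes were all members, list genes past both diet thresholds, the 3 per direction with the largest organ difference, and the 5 most like HEY1. Marker sums add linear signals and are given as log2. The fits were tested on simulated data. Precision is limited by 4 arrays per group, and p-values of the main fits measure the spread between pigs on the same slide. Each group lay on its own slide, so variation between slides is not part of that spread. Alternatives were other scaling, normexp background correction (offset 50), the deposited log2 values, dim probes left out, probes averaged, the methods' t-test, replicate and slide blocks, and each array left out. For SOX9 leaving out each liver array was added after the data were seen. A few listed genes are not reported here by name. Figures were drawn with matplotlib 3.10.9.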

Additional observations from a re-analysis of the deposited data

Results flagged for a closer look

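At both HEY1 probes every RPS array lay above every CS array in the colon and below every CS array in the liver, and the diet difference in the colon minus that in the liver was 1.13 at probe A_72_P502689 and 1.16 at probe A_72_P245497. The difference was not tested, because HEY1 was chosen with it known. Of 48 groups of 4 arrays at the 12 probes, 3 held an array whose gap to its neighbour exceeded Dixon's 95% critical share of the group's range, and chance gives about 5% of groups. These were NOTCH1 on liver RPS replicate 1, with a signal of 10.21 and a gap of 0.885 of the range, JAG1 probe A_72_P500418 on liver RPS replicate 3, with 9.58 and 0.841, and DLL4 probe A_72_P291374 on colonic CS replicate 3, with 4.82 and 0.831.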

How the results depend on the processing

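The diet difference of HEY1 kept its sign in colon, liver and between them under the alternatives run, each of which includes a scaling between arrays. With 1 array left out the sign could hardly turn, since the diet groups did not overlap, and some alternatives leave the value itself unchanged. Without scaling, 3 of 4 colonic RPS arrays were below all CS arrays at both HEY1 probes. The colonic difference ran from 0.30 to 0.48, and with 1 array left out from 0.30 to 0.41. In the liver it was -0.52 with normexp background correction and ran from -0.82 to -0.68 with 1 array left out, and the difference between the organs was 0.82 with normexp and 1.05 to 1.18 with 1 array left out.

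The members past both diet thresholds in the liver numbered 2, but 0 with normexp and 1 to 2 with 1 array left out (1 without RPS replicate 3). For the difference of the diet effects they numbered 2, but 1 with scaling to the 75th percentile and 1 to 2 with 1 array left out (1 without liver CS replicate 1, 3 or 4, liver RPS replicate 2, 3 or 4, colonic CS replicate 3 or colonic RPS replicate 4). Of the other pathway genes, the 1 in the colon and the 1 for the difference of the diet effects became 0 with normexp, with dim probes left out and with probes averaged. With 1 array left out they ran from 1 to 2 (2 without colonic RPS replicate 2) and from 0 to 1 (0 without liver CS replicate 2 or 3, colonic CS replicate 3 or colonic RPS replicate 4). The members higher in the colon numbered 1, but 2 with dim probes left out and 1 to 2 with 1 array left out, where JAG1 (adjusted p = 0.0457 with dim probes left out) joined HEY1. With the slide as a random block the count was also 1, but the gene was JAG1 (adjusted p = 0.0335). That fit left out the diet and had a correlation within slides of -0.0462, so it does not isolate the slide. The colon minus liver difference of NOTCH1 ran from -3.68 to -2.80 over 25 alternatives. The colonic diet differences of the other members took either sign, from -0.10 to 0.33 for DLL4, from -0.10 to 0.48 for JAG1 and from -0.06 to 0.32 for NOTCH1. The liver difference of DLL4 was -0.15 with its probes averaged. The causes were not tested.

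With the replicate number as a block, HEY1 had 0.37 in the colon, -0.76 in the liver and 1.13 between them, values that a balanced block cannot move. No call on a member changed. Between the organs this alternative treated the colonic and liver arrays of one diet and number as a pair. The labels do not say what a number marks, and in the main fits the numbers were not taken to pair the samples, since not every pair correlated above 0.1. Deviations of colonic and liver arrays of the same number correlated with r from 0.155 to 0.327 for CS, above that mark in 4 of 4 pairs, and from -0.0698 to 0.0761 for RPS, in 0 of 4, those of CS and RPS arrays from -0.515 to 0.542, and 4 of 8 colonic arrays correlated best with the liver array of their number. The brightest DLK1 probe, above background on no array, and the second DLL4 probe in the liver, above it on 1 of 8, are measured poorly.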
